A study of Mus musculus with 4 samples.

Results

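Integrins and cadherins are the receptors by which cells hold on to matrix and to each other. Their genes were compared between stromal cells of proximal and distal prostatic ducts. The members were all protein-coding mouse genes named Itga or Itgb, and all named Cdh followed by a number except Cdh1. Integrin-like and integrin-binding proteins were left out. This gave 27 integrin and 22 cadherin genes, 49 of 25738 named genes. The group is wider than classical cadherins, since 5 of the 22 (Cdh13, Cdh16, Cdh17, Cdh23 and Cdh26) belong to neither the type I nor the type II cadherins.

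An integrin is a pair of 1 alpha and 1 beta subunit. The pair decides the ligand: some bind collagen, some laminin, and others fibronectin or vitronectin through a short arginine-glycine-aspartate (RGD) sequence. Inside the cell, beta subunits bind talin and kindlin and so reach actin. Classical cadherins bind cadherins of a neighbouring cell and hold beta-catenin and p120-catenin at their tails. In fibroblasts of many organs, alpha 5 beta 1 integrin and cadherin-11 are well-known members of the 2 families.

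There were 4 RNA libraries of sorted stroma from adult C57BL/6 mice, 2 from proximal and 2 from distal ducts, and no treatment is named. The cells were lineage-negative, CD24-negative, CD49f-negative and Sca-1-positive, and CD49f is the product of the member Itga6. The libraries are called distal 2, distal 3, proximal 2 and proximal 3 after their labels, which do not say whether animals were pooled or whether libraries came from separate animals. The p-values thus take in no more than the differences among these 4 libraries, and those may be technical. Levels are FPKM (fragments scaled to transcript length and to all mapped fragments), summed per gene. Bulk values cannot tell fewer expressing cells from less RNA per cell.

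Genes with 1 FPKM or more in at least 2 libraries entered the test. That held for 21 members (15 integrins and 6 cadherins) among 11264 genes. The limma test on log2(FPKM + 1) called 0.00% of all genes and 0 members at an adjusted p of 0.05 (smallest over all genes 0.198). An unadjusted p under 0.05 was reached by 3.16% of genes and by 4 members. With 2 libraries on each side, the smallest p of an exact permutation test is 0.333. Differences below are therefore descriptions of 4 libraries unless a test is named.

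The 2 proximal libraries were each above the 2 distal ones for 4 members, Cdh13, Cdh22, Itga8 and Itga4, against 13.0% of all genes. They lay below for 6 members, Itga1, Itga7, Itgb1, Itgb3, Itgb8 and Cdh6, against 8.64% of all genes. Cdh22, Itga8 and Itga4 entered the test only through the proximal libraries and Itgb3 only through the distal ones, so they had to differ and these counts support nothing about the members. By mean, 7 members were higher in proximal stroma (60.4% of all genes) and 14 higher in distal stroma (39.6% of all genes). The median log2 difference, proximal minus distal, was -0.098 for the integrins and -0.20 for the cadherins, against 0.095 for all genes tested. Quantile normalization moved the median of all genes to -0.026 and that of the integrins to -0.33, so the integrin median was below that of all genes under both. Itga1, Itga7 and Itgb1 differed by little, and not all stayed apart under other scalings. Under median ratio scaling Itga7 and Itgb1 overlapped between regions, and under quantile normalization Itga7 did.

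**Figure D1:**
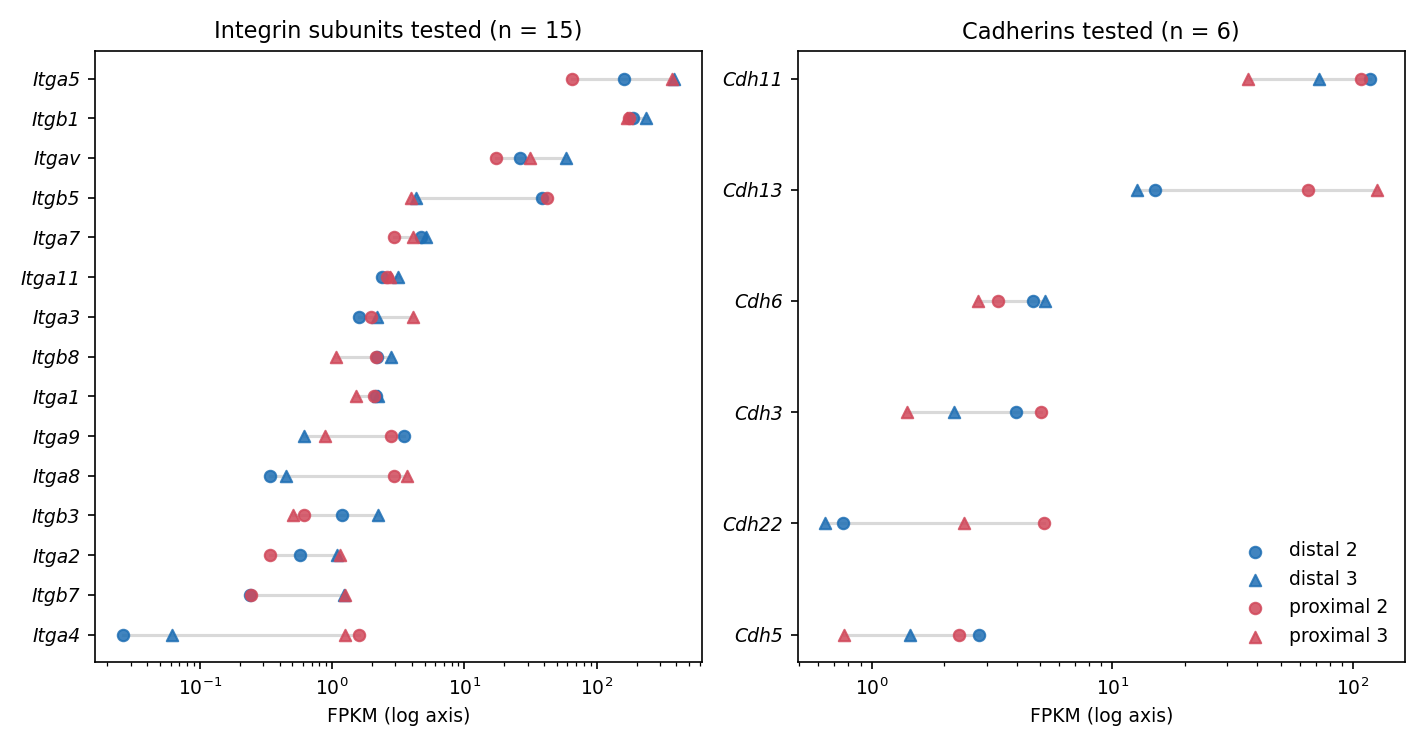
FPKM on a log axis of the 15 tested integrin subunits (left) and 6 tested cadherins (right), ordered by their mean, with 1 point per library (blue distal, red proximal, circles for number 2, triangles for number 3). Colours separate with proximal higher for Cdh13, Cdh22, Itga8 and Itga4, and with distal higher for Itga1, Itga7, Itgb1, Itgb3, Itgb8 and Cdh6. Shapes separate most for Itgb5, with 38.3 and 42.0 FPKM in the libraries numbered 2 and 4.30 and 3.93 FPKM in those numbered 3. They also separate for Itga2, Itga3, Itga5, Itga9, Itga11, Itgav, Itgb7, Cdh3, Cdh5 and Cdh11.

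Sequence before the gene start is shown for the members with higher values in both proximal libraries, because these 4 shared that pattern. RefSeq promoters (GRCm38.p6) were found for 3 of the 4, and Cdh13 had no entry. Each line gives bases before the RefSeq start, 5′ to 3′ on the gene's strand, with capitals for the GC box GGGCGG on either strand. The window is 250 bases, of which 134 are shown for Cdh22, since GENCODE starts that gene further upstream and places the other 116 inside it.
Itga8 (chr2:12301945-12302194, minus strand): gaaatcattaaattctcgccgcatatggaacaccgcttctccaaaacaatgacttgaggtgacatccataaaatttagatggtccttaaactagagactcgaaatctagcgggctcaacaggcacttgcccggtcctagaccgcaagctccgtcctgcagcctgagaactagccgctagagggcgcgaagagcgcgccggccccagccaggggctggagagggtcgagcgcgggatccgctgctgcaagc
Itga4 (chr2:79255176-79255425, plus strand): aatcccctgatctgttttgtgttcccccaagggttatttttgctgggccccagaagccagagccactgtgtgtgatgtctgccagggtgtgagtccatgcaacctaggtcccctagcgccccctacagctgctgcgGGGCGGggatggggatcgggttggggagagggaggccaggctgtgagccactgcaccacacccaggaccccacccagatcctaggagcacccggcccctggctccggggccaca
Cdh22 (chr2:165234854-165234987, minus strand): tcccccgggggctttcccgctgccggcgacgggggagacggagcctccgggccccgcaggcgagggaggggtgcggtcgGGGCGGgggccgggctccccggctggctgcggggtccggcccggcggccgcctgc

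The 3 windows, each taken over its 250 bases, differ in base composition. G and C made up 56.4% of the Itga8 window, 64.0% of the Itga4 window and 77.6% of the Cdh22 window, against a median of 52.4% over 32817 promoters. The dinucleotide CG occurred 18, 6 and 30 times, against a median of 6. GGGCGG occurred once each in the Itga4 and Cdh22 windows and in 32.7% of all promoters. The E-box CANNTG occurred 2 times in Itga8, 1 time in Itga4 and 0 times in Cdh22, and in 66.2% of all promoters. The forkhead letters TGTTTAC (3.16% of all promoters), TATAAA (12.4%) and the TEAD letters GGAATG (12.6%) occurred 0 times in these 3 windows. All letters were searched on both strands, and these matches are descriptions of the window only.

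Cdh13 had the largest difference of the tested members on the log2(FPKM + 1) scale, while the ratio of means was larger for Itga4 and Itga8, which were far lower in level. It encodes T-cadherin, which is held in the membrane by a lipid anchor, lacks the catenin-binding tail and binds adiponectin. Its gene spans chromosome 8 from 118283733 to 119324921 (plus strand, mm10). Cdh13 measured 15.0 FPKM in distal 2, 12.7 in distal 3, 64.8 in proximal 2 and 125.9 in proximal 3. The proximal values did not overlap the distal ones, and the deposited bounds of the lowest proximal value (61.4 to 68.2 FPKM) lay clear of those of the highest distal value (13.8 to 16.1 FPKM). Mean FPKM was 95.3 ± 43.2 in the proximal and 13.8 ± 1.65 in the distal pair (SD, n = 2 each), a ratio of 6.90. The log2 difference was 2.63 ± 0.43 (SE), with 2.04 between the libraries numbered 2 and 3.22 between those numbered 3. It did not pass (adjusted p = 0.538, limma). With the library number as a block it did (adjusted p = 0.00612, limma). That block was an alternative only, since no label says what a number stands for. Without distal replicate 2 the log2 difference was 2.74. In that fit distal stroma is distal 3 alone, assumed to vary like the proximal libraries. All of Cdh13's FPKM came from 1 of its 6 transcripts, one of 2290 bases.

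Cdh22, a type II cadherin known mainly from brain, had the next largest cadherin difference. It measured 0.758 FPKM in distal 2, 0.641 in distal 3, 5.20 in proximal 2 and 2.42 in proximal 3. Its proximal values lay above its distal ones, and it passed the filter through the proximal libraries alone. The ratio of means was 5.44 and the log2 difference 1.44 ± 0.46 (SE; adjusted p = 0.99991, limma), or 2.20 with a pseudocount of 0.1. Cdh22 lies on chromosome 2 at 165111507 to 165234853 (minus strand).

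Cdh11, or OB-cadherin, is the type II cadherin typical of mesenchyme, and it was the most abundant cadherin in 3 of the 4 libraries. It measured 117.3 FPKM in distal 2, 72.1 in distal 3, 108.1 in proximal 2 and 36.5 in proximal 3. The regions overlapped, and both libraries numbered 3 lay below both numbered 2. Its log2 difference was -0.54 ± 0.60 (SE), with -0.117 between the libraries numbered 2 and -0.965 between those numbered 3. Without proximal replicate 3 it was 0.23, since region and number are then mixed. Cdh13 therefore stood at 0.128 and 0.176 of the Cdh11 level in distal 2 and distal 3, 0.599 in proximal 2 and 3.45 in proximal 3. Of the summed cadherin FPKM, Cdh11 held 80.7% and 74.7% in the distal libraries and 56.9% and 21.2% in the proximal ones. Cdh13 held 10.3% and 13.1% in distal 2 and distal 3 against 34.1% and 73.2% in proximal 2 and proximal 3.

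The remaining cadherins were low. Cdh6, a type II cadherin first known from kidney, measured 4.66 FPKM in distal 2, 5.26 in distal 3, 3.33 in proximal 2 and 2.75 in proximal 3. Both proximal values were lower, with a log2 difference of -0.56 ± 0.40 (SE; adjusted p = 0.99991, limma). Cdh3, the P-cadherin of basal epithelia, ranged from 1.40 (proximal 3) to 5.07 FPKM (proximal 2). Cdh5, the VE-cadherin of endothelium, ranged from 0.767 (proximal 3) to 2.79 FPKM (distal 2), and both genes overlapped between regions. Cdh3 was lower in both libraries numbered 3, at 2.20 FPKM in distal 3 and 1.40 FPKM in proximal 3. Summed epithelial markers were 314 FPKM in proximal 3 against 40.7 to 96.3 FPKM in the other libraries. Their part in the Cdh3 values was not tested. Summed endothelial markers ran from 6.60 (proximal 2) to 7.71 FPKM (proximal 3), and single markers went both ways by number. Emcn measured 1.02 and 1.60 FPKM in distal 2 and proximal 2, and 0.446 and 0.7085 FPKM in distal 3 and proximal 3. Pecam1 measured 0.263 and 0.424 against 0.755 and 1.56 FPKM in the same order. The part of endothelial RNA in the Cdh5 values was not tested. Another 16 cadherins stayed out of the test, of which 10 never reached 0.1 FPKM. They included N-cadherin, Cdh2, at no more than 0.357 FPKM, and the highest was Cdh17 at 1.30 FPKM in distal 3. Cdh16 and Cdh20 were listed at 0 in all 4 libraries.

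**Figure D2:**
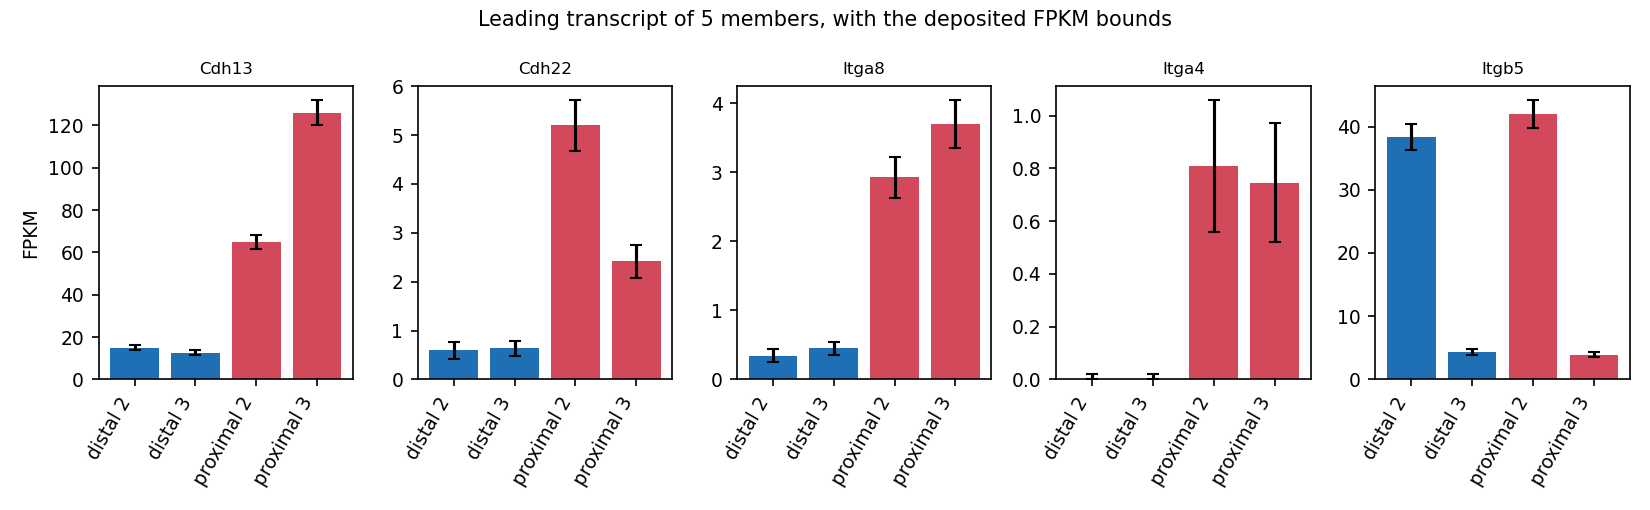
FPKM of the leading transcript of Cdh13, Cdh22, Itga8, Itga4 and Itgb5 in each library (bars; blue distal, red proximal), with the lower and upper bounds deposited by the authors as error bars, which cover estimation within a library only. Cdh13 reached 64.8 and 125.9 FPKM in the proximal libraries against 15.0 and 12.7 FPKM in the distal ones, whereas Itgb5 was high in distal 2 and proximal 2.

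Among the alpha subunits that bind RGD sequences, Itga8 had higher proximal values. Alpha 8 pairs with beta 1, binds nephronectin and vitronectin, and is known from mesenchyme and smooth muscle. Itga8 measured 0.341 FPKM in distal 2, 0.447 in distal 3, 2.93 in proximal 2 and 3.70 in proximal 3. The regions did not overlap, and Itga8 passed the filter through the proximal libraries alone. The ratio of means was 8.41 and the log2 difference 1.63 ± 0.38 (SE; adjusted p = 0.885, limma), with 1.55 between the libraries numbered 2 and 1.70 between those numbered 3. With a pseudocount of 0.1 in place of 1 it was 2.79. The 6 smooth muscle and pericyte markers summed to 215 FPKM in distal 2, 154 in distal 3, 204 in proximal 2 and 123 in proximal 3, mostly from Des and Acta2. Single markers went both ways: Myh11 measured 5.11 and 2.80 FPKM in the distal pair of libraries against 12.3 and 5.32 in the proximal pair, and Cspg4 15.1 and 17.6 against 7.25 and 7.73 FPKM. Their part in the Itga8 values was not tested. The antisense gene E030013I19Rik, which overlaps the start of Itga8, was listed at 0 in all 4 libraries. Itga8 lies on chromosome 2 at 12106632 to 12301922 (minus strand).

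Itga4 was at or near 0 in distal stroma. Alpha 4 pairs with beta 1 or beta 7 and binds VCAM1 and fibronectin, and it is best known from leukocytes. Itga4 measured 0.0261 FPKM in distal 2, 0.0611 in distal 3, 1.60 in proximal 2 and 1.26 in proximal 3. It too passed the filter only through the proximal libraries. The ratio of means was 32.8, over distal values close to 0, and the log2 difference was 1.22 ± 0.34 (SE; adjusted p = 0.99991, limma), or 3.42 with a pseudocount of 0.1. The proximal values came from 2 transcripts, of 3249 and 9832 bases, the first listed at 0 in both distal libraries. The 6 leukocyte markers summed to 3.34 FPKM in distal 2, 4.06 in distal 3, 2.54 in proximal 2 and 4.26 in proximal 3. Of these, Ptprc did not exceed 0.120 FPKM and Cd3e was listed at 0 throughout. Cd68 measured 1.76 FPKM in distal 2, 1.28 in distal 3, 0.749 in proximal 2 and 1.87 in proximal 3. Lyz2 stood at 0.761, 1.39, 1.12 and 1.08 FPKM in that order, and Cd79a at 0.464, 1.14, 0.569 and 0.914 FPKM. Leukocyte alpha subunits, at no more than 0.249 FPKM, went both ways. Itgal was higher in both proximal libraries, at 0.0925 and 0.193 against 0.0327 and 0.0176 FPKM. Itgam was lower in both, at 0.0878 and 0.0971 against 0.103 and 0.249 FPKM, and so was Itgax. The part of leukocyte RNA in the Itga4 values was not tested. Itga4 lies on chromosome 2 at 79255426 to 79333123 (plus strand).

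Itga5 was the most abundant alpha subunit in every library. Alpha 5 beta 1 is the main fibronectin receptor of fibroblasts. Itga5 measured 159.6 FPKM in distal 2, 387.3 in distal 3, 65.2 in proximal 2 and 373.3 in proximal 3. The 2 libraries numbered 3 were high and alike, while those numbered 2 were lower and the regions overlapped. Its log2 difference was -0.67 ± 0.91 (SE; adjusted p = 0.99991, limma), and 0.58 without proximal replicate 2. Itga5 held 64.4% (proximal 2) to 87.6% (proximal 3) of the summed FPKM of all alpha subunits.

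Itgav, the partner of beta 1, 3, 5, 6 and 8 in receptors for vitronectin and latent TGF-beta, came next. It measured 26.5 FPKM in distal 2, 59.0 in distal 3, 17.2 in proximal 2 and 31.1 in proximal 3. Within each number the distal value was the higher, but the regions overlapped (log2 difference -0.75 ± 0.53, SE; adjusted p = 0.99991, limma). The platelet subunit Itga2b did not exceed 0.534 FPKM and the platelet marker Pf4 did not exceed 0.333 FPKM.

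Collagen- and laminin-binding alpha subunits were low, and the log2 differences of those tested lay between -0.40 and 0.43. Itga11, the fibrillar collagen receptor of fibroblasts, measured 2.40 and 3.15 FPKM in the distal pair of libraries, 2.61 and 2.75 in the proximal pair. Itga1 measured 2.14 and 2.21 FPKM in the distal pair of libraries, 2.07 and 1.52 in the proximal pair. Its 2 distal values lay above the proximal ones by a small margin, and its most abundant transcript alone had a log2 difference of the other sign (0.10). The gene Pelo lies inside Itga1, and reads of overlapping genes could not be told apart by strand. Itga2 ranged from 0.338 (proximal 2) to 1.14 FPKM (proximal 3), and Itga10 did not exceed 0.288 FPKM.

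Itga7, a laminin receptor known from muscle, measured 4.69 FPKM in distal 2, 5.11 in distal 3, 2.93 in proximal 2 and 4.10 in proximal 3, lower in both proximal libraries (log2 difference -0.40 ± 0.41, SE; adjusted p = 0.99991, limma). Its FPKM came from 2 transcripts, of 4032 and 4020 bases. The shorter measured 2.56 and 3.44 FPKM in the distal pair of libraries against 1.03 and 1.70 in the proximal pair, whereas the longer ranged from 1.67 to 2.40 FPKM and overlapped. Itga3 ranged from 1.61 (distal 2) to 4.07 FPKM (proximal 3), and the regions overlapped. Its transcript of 4853 bases measured 1.11 and 0.733 FPKM in the distal pair of libraries against 1.97 and 3.14 in the proximal pair. The Itga3 transcript of 4689 bases overlapped between regions. Itga9, which binds tenascin, measured 3.47 FPKM in distal 2, 2.77 in proximal 2, 0.614 in distal 3 and 0.885 in proximal 3, so it separated by number and not by region.

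Itgb1, the common partner of most alpha subunits, held 79.4% to 95.5% of the summed beta subunit FPKM. It measured 188.3 FPKM in distal 2, 237.5 in distal 3, 174.8 in proximal 2 and 169.0 in proximal 3. Both proximal values were lower by a small margin (log2 difference -0.30 ± 0.31, SE; adjusted p = 0.99991, limma). Of the beta subunits that pair with alpha V, Itgb3 measured 1.19 and 2.21 FPKM in the distal pair of libraries against 0.609 and 0.502 in the proximal pair. It passed the filter through the distal libraries alone, with a log2 difference of -0.77 ± 0.39 (SE; adjusted p = 0.99991, limma). Itgb8, which takes part in TGF-beta activation, measured 2.17 and 2.80 FPKM in the distal pair of libraries against 2.13 and 1.07 in the proximal pair. Its distal 2 and proximal 2 values were close, and the lower level was that of proximal 3.

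Itgb5 differed by library number more than any other tested member. Beta 5 pairs with alpha V in a vitronectin receptor. Itgb5 stood at 38.3 FPKM in distal 2 and 42.0 FPKM in proximal 2, and at 4.30 FPKM in distal 3 and 3.93 FPKM in proximal 3. The libraries numbered 2 were thus 8.92 times higher in distal and 10.7 times higher in proximal stroma, and the regions were alike within each number. The deposited bounds, 36.3 to 40.4 against 3.85 to 4.74 FPKM in distal stroma, did not meet. Among all genes, 1.83% were at least 4-fold apart by number on the log2(FPKM + 1) scale in the same direction in both regions, and Itgb5 was the 1 tested member to be so. Its region difference was 0.013 ± 1.36 (SE, log2), and below 0 after quantile normalization or median ratio scaling. Leaving out 1 library moved it between -1.55 (without proximal replicate 2) and 1.58 (without proximal replicate 3), since region and number are then mixed. No label says what a number stands for.

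Other members also separated by number. Both libraries numbered 3 lay above both numbered 2 for 6 members (Itga2, Itga3, Itga5, Itga11, Itgav and Itgb7), against 20.2% of all genes. They lay below for 5 (Cdh3, Cdh5, Cdh11, Itga9 and Itgb5), against 50.3% of all genes. Itga2 and Itgb7 entered the test only through the libraries numbered 3, and Itga9 only through those numbered 2. These genes had to differ by number, so the counts support nothing about the members. Itgb7, a leukocyte subunit, measured 0.238 FPKM in distal 2, 0.245 in proximal 2, 1.22 in distal 3 and 1.26 in proximal 3. In the libraries numbered 3, Itga5 held a larger and Itgb5 a smaller share of its subunit class than in those numbered 2.

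**Figure D3:**
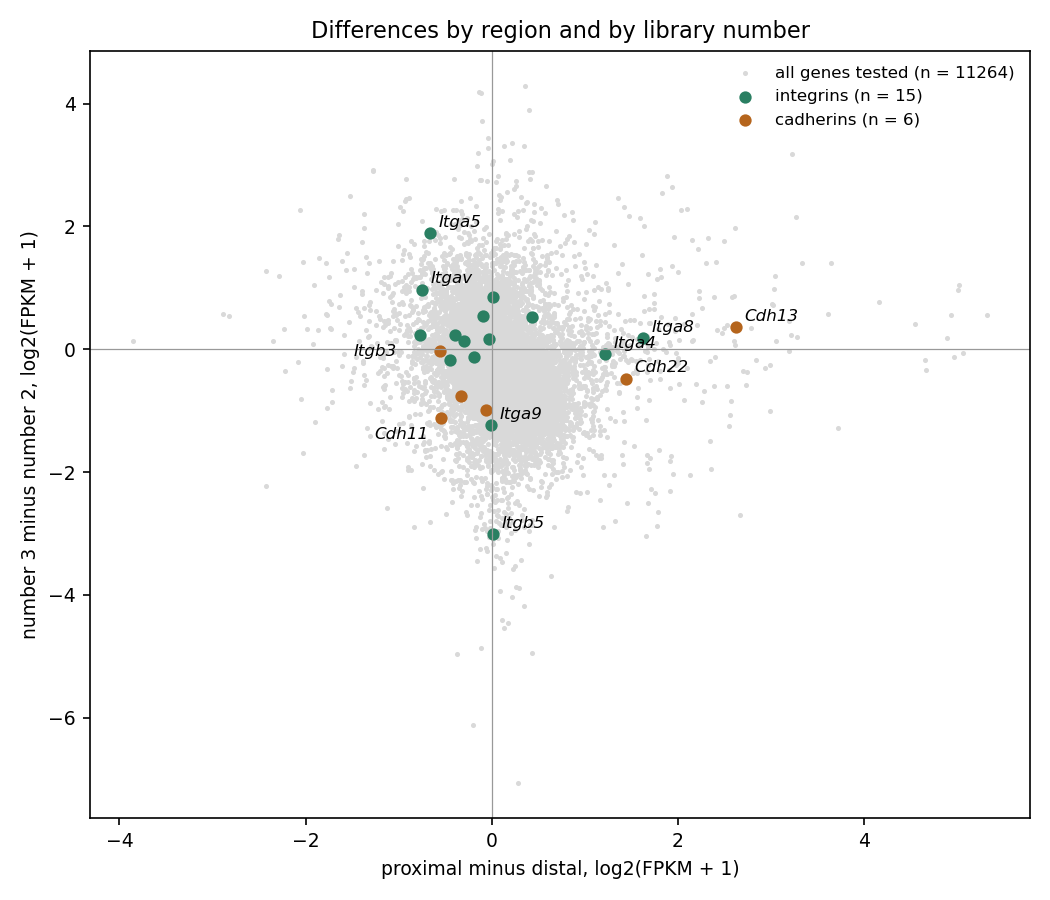
Each point is a gene, with the proximal minus distal difference on the x axis and the number 3 minus number 2 difference on the y axis, both as means on log2(FPKM + 1) (grey, 11264 genes tested; green, 15 integrins; brown, 6 cadherins). Cdh13, Itga8, Cdh22 and Itga4 lie to the right, while Itgb5 lies low with a region difference of 0.013. The y value is a mean over both regions. Within proximal stroma the number difference was 0.947 for Cdh13, 0.259 for Itga8, -0.859 for Cdh22 and -0.202 for Itga4.

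**Figure D4:**
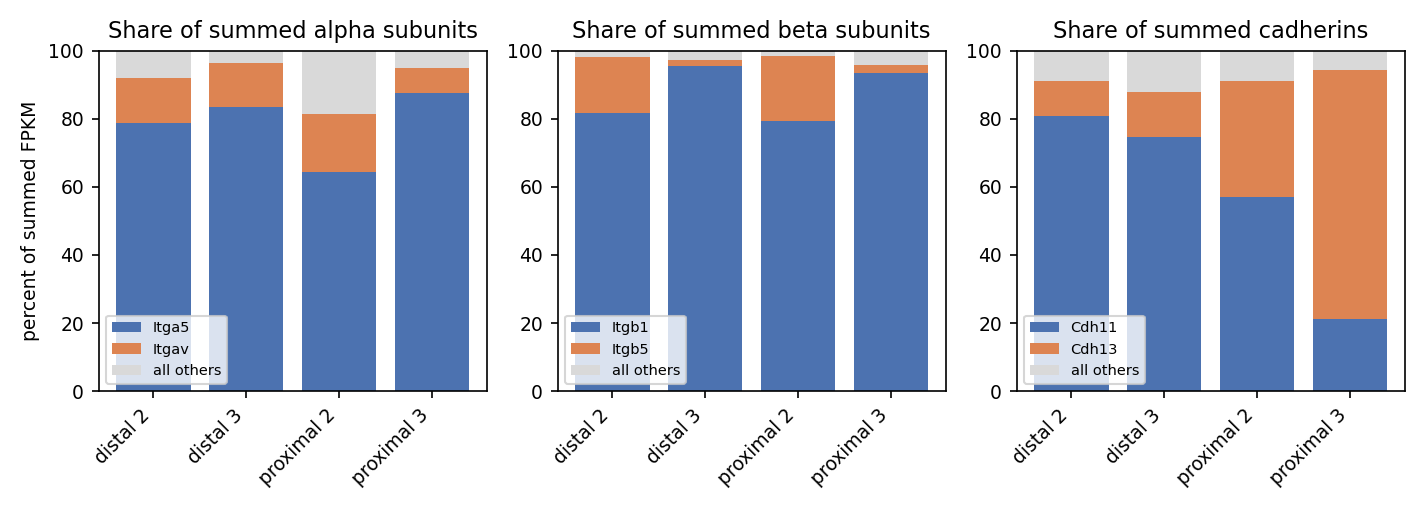
Share, in percent of summed FPKM, of the leading alpha subunits, beta subunits and cadherins in each library, with all other members in grey. Cdh13 made up 34.1% and 73.2% of cadherin FPKM in the proximal libraries against 10.3% and 13.1% in the distal ones, and Itgb5 made up 16.6% and 19.1% of beta FPKM in the libraries numbered 2 against 1.73% and 2.17% in those numbered 3.

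Integrins typical of epithelium and leukocytes were low. Itgb6, the epithelial partner of alpha V, measured 0.0930 and 0.531 FPKM in the distal pair of libraries, 0.441 and 3.19 in the proximal pair. Itgb4, the hemidesmosome subunit that pairs with alpha 6, was listed at 0 in distal 2 and proximal 2 and stood at 0.241 FPKM in distal 3 and 1.79 FPKM in proximal 3. Itga6, whose product the sort selected against, stood between 0.501 (distal 2) and 1.34 FPKM (proximal 3). All 3 were highest in proximal 3, as were the summed epithelial markers, at 40.8 FPKM in distal 2, 96.3 in distal 3, 40.7 in proximal 2 and 314 in proximal 3. All 7 of these markers reached 1 FPKM, among them Epcam at 30.1 FPKM and Krt8 at 68.8 FPKM in proximal 3. Their part in the values of Itgb6, Itgb4 and Itga6 was not tested. The 5 leukocyte alpha subunits did not exceed 0.249 FPKM (Itgam, distal 3), Itgb2 did not exceed 0.0301 FPKM, and Itgad was listed at 0. Stromal markers such as Dcn and Pdgfra were present in all libraries, with a summed level of 3880 to 4990 FPKM.

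Partners of the integrins and cadherins gave 0 calls (limma), with 1 cytoplasmic protein, 0 catenins and 2 ligands at an unadjusted p under 0.05. Of 24 integrin-linked cytoplasmic proteins 21 were tested, 6 with higher proximal (60.4% of all genes) and 15 with higher distal values (39.6% of all genes). Their median was -0.12, against 0.095 for all genes. Both proximal libraries lay below both distal for 5 of them, against 8.64% of all genes, and above for 2, against 13.0%. Paxillin (Pxn), an adaptor of focal adhesions, measured 63.9 and 88.0 FPKM in the distal pair of libraries against 28.0 and 39.0 in the proximal pair (log2 difference -1.16 ± 0.36, SE). Kindlin-2 (Fermt2), which activates beta subunits, stood at 106.0 and 110.9 against 45.4 and 82.0 FPKM, and zyxin (Zyx) at 95.6 and 84.0 against 62.2 and 51.5 FPKM. All 3 had both proximal values below both distal ones, while the leukocyte kindlin Fermt3 was listed at 0 in every library.

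Of 8 catenin genes 5 were tested, 1 with higher proximal (60.4% of all genes) and 4 with higher distal values (39.6% of all genes). Their median was -0.13, against 0.095 for all genes. Both proximal libraries lay below both distal for 1 catenin (8.64% of all genes) and above for 0 (13.0% of all genes). Beta-catenin (Ctnnb1) measured 124.0 and 159.9 FPKM in the distal pair of libraries, 89.1 and 141.8 in the proximal pair, which overlap. Plakoglobin (Jup) stood at 36.3 and 53.0 against 30.5 and 30.3 FPKM, lower in both proximal libraries. Ctnnal1, an alpha-catenin relative, ranged from 2.82 to 8.04 FPKM and was higher in both libraries numbered 3.

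Of 27 matrix and cell surface ligands of integrins 22 were tested, 8 with higher proximal (60.4% of all genes) and 14 with higher distal values (39.6% of all genes), and a median of -0.13 against 0.095 for all genes. Both proximal libraries lay below both distal for 5 ligands (8.64% of all genes) and above for 1 (13.0% of all genes). Vitronectin (Vtn), a ligand of alpha V beta 5 and alpha 8 beta 1, measured 1.53 and 1.72 FPKM in the distal pair of libraries against 21.9 and 27.2 in the proximal pair. Its log2 difference was 3.28 ± 0.39 (SE; adjusted p = 0.322, limma). Thrombospondin 1 (Thbs1) had a log2 difference of -2.03 ± 0.70 (SE) and fibronectin (Fn1) of -1.06 ± 0.53 (SE). Fibronectin, the ligand of alpha 5 beta 1, measured 13.8 and 28.2 FPKM in the distal pair of libraries against 6.43 and 12.4 in the proximal pair. Nephronectin (Npnt), the other ligand named for alpha 8, measured 5.26 and 2.82 FPKM in the distal pair of libraries, 3.14 and 1.56 in the proximal pair, and the regions overlapped.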

How the data were processed

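RNA of 4 libraries (2 proximal, 2 distal) was measured. Per the labels' protocols, cDNA came from the SMART-Seq v4 kit, which does not mark strand. The submitters' processing notes name the genome mm10 and the tools Cufflinks (0.0.6), TopHat2 (0.6) and bcl2fastq (1.8.3). The authors deposited FPKM per transcript with lower and upper bounds and a coverage signal (63241 transcripts, per the file headers). Cufflinks shares fragments among overlapping transcripts, so a listed 0 can be a failed estimate. Median deposited coverage per FPKM, a relative measure of depth, was 5.22 to 6.34 by library. Fragment totals were not used here, so absolute depth is unknown.

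Transcripts took gene names by position in GENCODE M21: span overlap times length similarity of at least 0.8 with no rival gene within 0.8 of it, then both ends within 100 bp of one gene's exons, then span similarity of at least 0.5 with others under 0.25. This named 55589 (87.90%). All 146 member transcripts overlapped the RefSeq gene of the same symbol. FPKM was summed per symbol, and 7 genes with a failed or capped estimate were left out (0 members). Genes with 1 FPKM in at least 2 of 4 libraries were tested as log2(FPKM + 1), which understates changes of low genes, with limma 3.58.1 in R 4.3.3 (a region term alone, trended empirical Bayes, two-sided p adjusted by Benjamini-Hochberg over 11264 genes). Naming and plots used Python 3.11.15 with pandas 2.3.3, numpy 2.4.6 and matplotlib 3.10.9. The fit was also run on simulated data in which libraries varied independently. Deviations of same-numbered libraries were correlated here, so that run does not show how well the fit works on these data. The members and lists were chosen with earlier results of these data known. Values in every library are given for members with a regional mean of at least 5 FPKM, or with regions apart and a mean of at least 1 FPKM, and for paired subunits. Of each partner list the text takes the 3 largest differences. Itga2, Itga3, Itga9, Itga11, Itgb7, Itgal, Itgam, Itgax, Cdh3, Cdh5, Npnt, Icam2, Fermt3, Myh11 and Cspg4 were named after their values were seen. So were the markers Cd3e, Cd79a, Lyz2 and Emcn. Alternatives were the pseudocount, scaling, filters, naming, the leading transcript, the library number as a block, and leaving out each library.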

Additional observations from a re-analysis of the deposited data

How the results depend on the processing

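The labels tie the library numbers to no shared animal or day, and the replicate block was an alternative only. Deviations from the region means correlated at 0.816 between same-numbered libraries. With the replicate block limma called 465 genes (4.13%), 2 integrins (Itga4 and Itga8), 2 cadherins (Cdh13 and Cdh22) and 4 partner genes (Fn1, Pxn, Thbs1 and Vtn), against 0 of each without it. Itga4, Itga8 and Cdh22 entered the test only through the proximal libraries, where they were high, so their calls are not set against the share of all genes. With 1 library left out, the calls were 0 to 40 over all genes (40 without distal replicate 2, 26 without distal replicate 3), 0 integrins, 0 to 1 cadherin (Cdh13) and 0 to 1 partner (Vtn).

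Integrins with both proximal libraries above both distal numbered 2, but 4 with no filter, 0 at a mean of at least 5 FPKM, 1 with span and length naming only, and 3 to 5 with 1 library left out. Those below numbered 5, but 3 under median ratio scaling, 1 at a mean of at least 5 FPKM, and 6 to 8 with 1 library left out. Cadherins above numbered 2, but 4 with no filter, 1 at a mean of at least 5 FPKM, 1 with span and length naming only, which names no Cdh13 transcript with FPKM above 0, and 2 to 3 with 1 library left out. Those below numbered 1, but 2 under quantile normalization, 2 with no filter, 0 at a mean of at least 5 FPKM, 0 with span and length naming only, and 1 to 4 with 1 library left out. The filters and the stricter naming change which genes are counted. With 1 library left out, genes that were apart stay apart and others can join them, since fewer libraries are compared. For the other changes the cause was not tested. Shares over all genes were taken in the main setting only, at 13.0% above and 8.64% below. The counts under alternatives are thus not set against all genes and support nothing about the members.

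The integrin median of -0.098 became -0.28 with a pseudocount of 0.1, -0.33 under quantile normalization, 0.001 with no filter, -0.48 at a mean of at least 5 FPKM, -0.16 with span and length naming only, and -0.30 to -0.13 with 1 library left out. The cadherin median of -0.20 became -0.34 with a pseudocount of 0.1, -0.40 under quantile normalization, 0.011 with no filter, 1.04 at a mean of at least 5 FPKM (2 genes), -0.063 with span and length naming only, and -0.70 to 0.42 with 1 library left out. The median of all genes tested, 0.095, became 0.108 with a pseudocount of 0.1, -0.026 under quantile normalization and 0.05 with no filter. It was 0.041 at a mean of at least 5 FPKM and 0.091 with span and length naming only. With 1 library left out it was -0.065 to 0.295. Of 154 values of single members under alternatives, 142 kept sign and side of the threshold, 5 passed it and 7 changed sign. The sign changed for Itga1 with its most abundant transcript only (0.10), for Itgb5 under quantile normalization (-0.03) or median ratio scaling (-0.071), and, with 1 library left out, for Itgb5 (-1.55 to 1.58), Itga5 (-1.92 to 0.58) and Cdh11 (-1.31 to 0.23). Cdh13, Cdh22, Itga8 and Itga4 kept higher proximal values wherever they were tested. For genes already apart between regions, a change of pseudocount, filter or block, or leaving out 1 library, cannot reverse the sign. Only scaling, naming and the choice of transcript could have done so. Cdh13 and Itga4 were not tested with span and length naming only, nor Itga4 with its most abundant transcript only. Depth is unknown, so differences among members under 1 FPKM are not resolved here.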

Other observations

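Of the 21 integrin-linked cytoplasmic proteins tested, both libraries numbered 3 lay above both numbered 2 for 2 (20.2% of all genes) and below for 10 (50.3% of all genes). Of the 22 ligands tested they lay above for 6 and below for 7. Icam2, among those above, entered the test only through the libraries numbered 3 and so had to differ. The genes named next were chosen after their values were seen. Talin 2 (Tln2), the second talin gene, measured 9.58 FPKM in distal 2, 7.90 in proximal 2, 1.26 in distal 3 and 1.27 in proximal 3. Lims2, a partner of integrin-linked kinase, stood at 25.4 and 21.8 FPKM in the libraries numbered 2 and at 3.89 and 8.08 FPKM in those numbered 3. Both were lower in the libraries numbered 3, as was Itgb5. Vcam1, the cell surface ligand of alpha 4 beta 1, measured 59.1 FPKM in distal 2, 76.7 in proximal 2, 243.6 in distal 3 and 348.2 in proximal 3. Tenascin C (Tnc), a ligand of alpha 9 beta 1, stood at 2.53 and 2.80 FPKM against 15.0 and 32.4 FPKM in the same order. Vcam1 and Tnc were higher in the libraries numbered 3, while Itga9 was lower there. Talin 1 (Tln1) ranged from 23.8 to 38.6 FPKM and did not separate by number.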
